A study of Arabidopsis thaliana with 28 samples.

Results

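Warm-grown Arabidopsis plants overexpressing CBF3, called CBF3OX, were compared with warm-grown wild-type plants, 4 samples a side and 8 of the 28 samples of the series. The samples were taken by their titles. The CBF3OX samples came from 2 transgenic lines, line A28 for replicates 1 and 2 and line A30 for replicates 3 and 4. The wild type was the accession Ws-2. All 8 samples were whole aerial parts, taken after 11 d of growth on agar at 22 °C with the light always on, at about 100 µmol. The other groups set beside them, with 4 samples each, were warm plants overexpressing CBF1 (CBF1OX) or CBF2 (CBF2OX), warm plants overexpressing CBF2Δc, a construct also labelled CBF2DN, and wild-type plants moved to 4 °C and dimmer light (about 35 µmol) for 24 h. Each of these overexpressors also came as 2 lines with 2 samples each. CBF1OX held lines G5 and G39, CBF2OX held lines E2 and E24, and CBF2Δc held lines DN89 and DN96. The labels used here name neither the promoter behind the transgenes nor how many plants made up a sample, so p-values measure only the spread between these samples.

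CBF3, also known as DREB1A, is a transcription factor of the AP2/ERF family. It binds the CRT/DRE element in promoters and, with its close relatives CBF1 and CBF2, is made within hours of a drop in temperature. Its best known targets, the COR and LTI genes, encode hydrophilic proteins that protect membranes and enzymes during freezing. Lasting overexpression of CBF genes is also known for dwarf growth and late flowering, and much less is known of the genes whose transcripts are lower in such plants. Comparing warm overexpressors with warm wild type asks what the factor does without cold.

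Values below are log2 levels as deposited. A level is given for each sample in the order of the replicate numbers, a change is the difference of log2 means, CBF3OX minus wild type, and the error after a change is the standard error of the fit. A feature is a named gene or a probe set to which the annotation used here gives no single gene. A feature was called, and is said to have risen or fallen, when limma's Benjamini-Hochberg adjusted p was below 0.05 and the change reached 2-fold. The fit had 1 mean per group over all 28 samples, so gaps between the lines of any construct count as spread in every comparison. It also counts the 2 samples of a line as independent, so its p-values do not rest on lines as the unit. With line as a random block, samples of a line correlated at 0.226 and 516 features were called in CBF3OX plants. With line means as samples 317 were called. Relative to wild type, the median of the features raised in CBF3OX was 0.79 and 0.64 in line G5 but 2.04 and 2.05 in line G39 of CBF1OX. A fit with a mean for each line, added after the data were seen, is therefore given beside results that rest on this. It treats the lines as fixed and leaves the spread from line to line out of its p-values. A log2 level under 4 was taken as dim, and the size of a change from or to such a level depends on the background correction.

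The 8 arrays were alike in their overall values, with medians from 5.04 to 5.07, and each correlated with the other 3 of its group at 0.994 to 0.995 on average. No probe set of CBF3 itself carried its name in the annotation used here, so the label could not be checked by the gene's name. An unnamed probe set, 254066_at, followed the label. It stood at 12.27, 12.25, 11.97 and 11.86 in CBF3OX plants, against 3.65, 4.17, 3.50 and 3.50 in wild type, and no other warm group averaged above 3.97. Its mean in cold wild type was 8.12 ± 0.43 (SD, n = 4).

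The tissue label was set against marker genes. Of 5 root markers, 3 were measured. PYK10, a beta-glucosidase abundant in roots and seedlings, read 11.30, 11.78, 11.98 and 11.69 in CBF3OX plants, against 11.81, 11.59, 12.21 and 11.61 in wild type. The root-hair expansin genes EXPA7 and EXPA18 averaged 3.50 each in CBF3OX plants, against 4.31 and 4.50 in wild type. Summed on a linear scale, the 3 root markers ran from 2547 to 4059 in CBF3OX plants, against 3136 to 4786 in wild type. PYK10 made up nearly all of this sum. FMA, a guard-cell gene and 1 of 4 listed markers of guard cells and trichomes, ran from 24.1 to 32.2 on the same scale in CBF3OX plants, against 32.2 to 50.2 in wild type. Of 40 nuclear photosynthesis genes 7 were measured, and their sum ran from 24624 to 28697 in CBF3OX plants, against 26851 to 30109 in wild type. None of the listed seed or flower markers had a named probe set that was tested. In these bulk samples, fewer cells of a type and less RNA per cell cannot be told apart, and the part of root or guard-cell RNA in the results below was not tested.

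CBF3OX plants had 525 called features of 14578 tested, 3.60% of all. Of these, 283 rose (1.94%) and 242 fell (1.66%), so in this fit the lowered features were nearly as many as the raised ones. The sizes differed more than the numbers. Changes of at least 2 on the log2 scale were held by 74 raised and 45 lowered features, changes of at least 3 by 26 and 4, and changes of at least 4 by 17 and 0. The median change was 1.48 among the raised and -1.30 among the lowered features, beside 0.00125 over all features tested. The 4 samples of each group did not overlap in 281 of the 283 raised features and in 240 of the 242 lowered ones. Over all features 9.60% did not overlap with CBF3OX higher and 11.2% with CBF3OX lower. The calls were made from these same samples, so the separation of called features largely follows from the call and is no separate support. The raised features held 134 named genes and the lowered ones 96. Wild type was dim in 32 of the raised features, and CBF3OX was dim in 41 of the lowered ones. A wild-type mean of 9 or more was held by 58 of the lowered features (24.0%) and 17 of the raised ones (6.01%), beside 10.6% of all features tested. The wild-type mean is part of the change that chose these features, and a fall needs a start above the dimmest levels. These shares are therefore description only. With a mean for each line 590 features were called (4.05%), 303 higher and 287 lower. The balance depended on how the lines were treated. With line means as samples 203 were higher and 114 lower, and with line A30 alone 149 and 91.

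**Figure D1:**
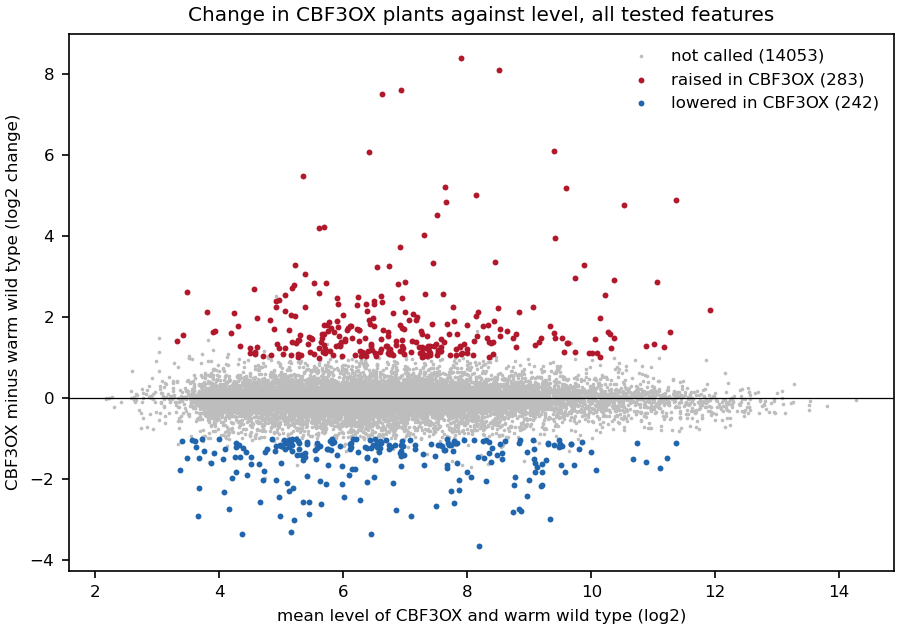
Each point is 1 of the 14578 tested features. The x axis is the mean log2 level over CBF3OX and warm wild-type plants and the y axis the log2 change, CBF3OX minus wild type. Raised features (red, 283) reach changes above 8, while no lowered feature (blue, 242) goes beyond -4, and both are spread over the whole range of levels.

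Genes for cold-protective proteins led the raised genes. All 4 measured members of a list of 15 classical CBF targets rose, with a median change of 5.43. Over all features 1.94% rose and the median was 0.00125. The other entries of the list had no named probe set. The list was drawn up with earlier results of these data known, so it is no separate test. COR15A (AT2G42540), a protein of the chloroplast stroma that protects membranes in freezing, stood at 12.79, 12.72, 12.23 and 12.52 in CBF3OX plants, against 5.01, 4.27, 4.29 and 4.29 in wild type. Its change was 8.10 ± 0.25, or 274-fold (adjusted p = 1.61e-18), and the groups lay far apart. Its neighbour COR15B (AT2G42530), which encodes a closely similar protein, read 12.55, 12.35, 12.34 and 12.50 in CBF3OX plants, against 6.13, 6.77, 5.97 and 6.50 in wild type. This was a change of 6.09 ± 0.20 (adjusted p = 1.19e-17), and whether the probe sets of the pair bind each other's transcripts was not tested. LTI30 (AT3G50970), a dehydrin also called XERO2, read 12.97, 12.93, 13.01 and 12.77 in CBF3OX plants, against 8.46, 7.85, 8.10 and 8.17 in wild type. The dehydrin COR47 (AT1G20440) rose by 2.18 ± 0.26 (adjusted p = 4.71e-06). It was already high in wild type, at 10.82 ± 0.24, and reached 13 ± 0.08 in CBF3OX plants (SD, n = 4 each).

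The other 12 of the 15 named genes with the highest changes covered several kinds of protein. AT1G16850, a gene of no known function, rose by 7.50 ± 0.66. It read 10.57, 10.49, 10.14 and 10.31 in CBF3OX plants and was dim in wild type, at 2.49, 2.75, 3.03 and 3.24. AT2G24560, a GDSL lipase gene, read 8.12, 8.48, 7.95 and 7.83 in CBF3OX plants, against 2.37, 2.69, 2.69 and 2.69 in wild type. A gene for a cell-wall enzyme and a gene of an inhibitor family followed. AT1G48100, a polygalacturonase gene that acts on pectin, rose by 4.22 ± 0.50, and AT3G17130, a gene of the family of invertase and pectin methylesterase inhibitors, by 4.03 ± 0.54. Among genes of pathogenesis-related families, the chitinase gene AT2G43620 rose by 5.21 ± 0.56, and its wild-type samples were uneven, with 4.40 and 4.09 against 6.0 and 5.66. The thaumatin family gene AT4G36010 rose by 2.84 ± 0.47. AT3G55760, known as LESV and involved in starch granules, rose by 3.27 ± 0.34.

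The remaining members of the 15 were AT1G68500 (3.72), AT1G51090 of the heavy-metal-associated domain family (3.33), the transporter-like AT2G16990 (3.06), AT4G30650 of the low-temperature and salt responsive family (2.96) and the late embryogenesis abundant gene AT2G23120 (2.91). AT2G23120 was abundant in both groups, with 12.09, 11.55, 11.61 and 12.01 in CBF3OX plants against 9.0, 8.95, 9.13 and 8.56 in wild type. All 15 stayed called under every alternative tried. Of the unnamed probe sets, 264511_at rose by 7.61 ± 0.61.

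**Figure D2:**
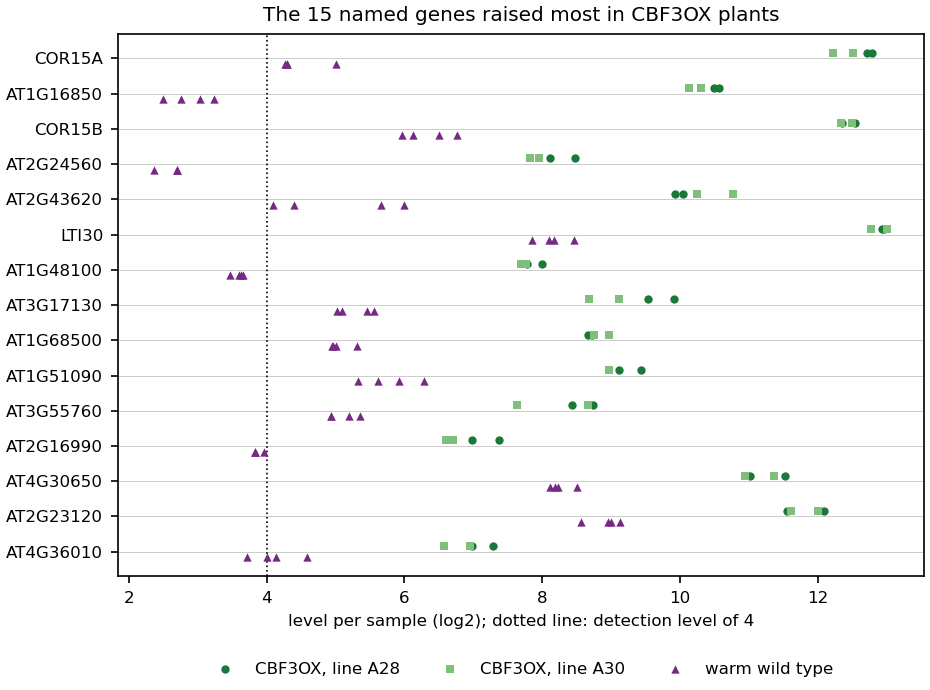
Log2 level per sample (x axis) of the 15 named genes raised most in CBF3OX plants, with circles for line A28, squares for line A30 and triangles for warm wild type. The dotted line marks the detection level of 4. By the rule that chose the genes, all 4 CBF3OX samples lie above all 4 wild-type samples in each. In wild type, 4 genes average under 4.

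Further raised genes were picked after their values were seen and stand for no group. CYS1 (AT5G12140), a cystatin that inhibits cysteine proteases, read 11.21, 11.06, 10.91 and 11.18 in CBF3OX plants, against 9.61, 9.41, 9.58 and 9.20 in wild type, a change of 1.64 ± 0.24 (adjusted p = 9.69e-05). SERPIN1 (AT1G47710), a serpin that inhibits proteases of the metacaspase and papain types, rose by 1.77 ± 0.33, and AT2G38870, a gene of the PR-6 family of protease inhibitors, by 1.60 ± 0.29. Proteases of other kinds rose as well, with BETA-VPE, a vacuolar processing enzyme, at 2.26 ± 0.47 and the aspartyl protease family genes AT3G54400 and AT5G07030 at 2.13 ± 0.39 and 2.07 ± 0.36. UGT72B3 (AT1G01420), a glucosyltransferase, rose by 2.80 ± 0.35, BGLU25, a beta-glucosidase gene, by 2.01 ± 0.37, and the cytochrome P450 gene AT3G44970 by 2.72 ± 0.51. CCT2, which encodes an enzyme of phosphatidylcholine synthesis, rose by 1.80 ± 0.31. ICL, isocitrate lyase of the glyoxylate cycle, read 8.28, 8.05, 7.53 and 7.57 in CBF3OX plants, against 5.81, 6.41, 5.72 and 5.04 in wild type. In the fit with 1 mean per group, its call ended with line A30 alone (adjusted p = 0.134) and with line means as samples (adjusted p = 0.0614), and that of BETA-VPE with line A30 alone (adjusted p = 0.0688). With a mean for each line, line A30 was called against wild type in both, at adjusted p = 0.000656 for ICL and 0.00014 for BETA-VPE.

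The lowered genes had no member that fell as far as the leading targets rose. The 30 named genes that fell most did so by 1.49 to 2.90 on the log2 scale. In 13 of them the wild-type mean was 9 or more, though that mean is part of the change that chose them. CBF3OX was dim in 6 of the 30, and wild type in 0. Unnamed probe sets fell further. 256766_at read 7.78, 4.84, 5.35 and 7.49 in CBF3OX plants, against 9.82, 10.60, 9.96 and 9.70 in wild type, a change of -3.66 ± 0.79 with a wide spread within each CBF3OX line. 245736_at fell by 3.36 ± 0.75. Line A30 alone was not called in the fit with 1 mean per group (adjusted p = 0.113) but was with a mean for each line (adjusted p = 1.81e-07).

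The 30 lowest genes are described below by kind of protein for order only, with no test of any kind as a group. PDF1.2b (AT2G26020), a plant defensin induced by jasmonate and ethylene, read 6.07, 5.67, 5.77 and 5.47 in CBF3OX plants, against 7.51, 8.60, 7.83 and 7.44 in wild type. It fell by 2.1 ± 0.27 (adjusted p = 1.86e-05). Its probe set carries the suffix x, which Affymetrix gives where probes may also bind related sequences, and the related PDF1.2 changed by -0.98 ± 0.23 (adjusted p = 0.00776), just short of 2-fold. AT3G16530, a legume lectin family gene, read 4.92, 5.22, 5.28 and 4.63 in CBF3OX plants, against 7.63, 7.72, 7.69 and 7.05 in wild type. It fell by 2.51 ± 0.26, with the lowest adjusted p of the 30, 5.66e-07. The leucine-rich repeat receptor kinase gene AT5G59670 read 3.88, 3.71, 3.45 and 3.74 in CBF3OX plants, against 5.54, 5.39, 6.12 and 5.82 in wild type. Its neighbour AT5G59680, of the same family and picked after its values were seen, fell by 1.16 ± 0.15 (adjusted p = 1.37e-05). In both, CBF3OX plants were at a dim level. Cross-binding of the pair's probe sets was not tested.

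AT1G23130 and AT1G14960, both of the family of major latex proteins and Bet v 1 allergens, fell by 2.42 ± 0.49 and 2.09 ± 0.44. AT1G23130 was abundant, at 8.15, 7.57, 7.38 and 7.91 in CBF3OX plants against 10.30, 10.04, 10.35 and 10.01 in wild type. The terpene synthase family gene AT3G29410 read 7.26, 7.0, 7.59 and 7.29 in CBF3OX plants, against 9.25, 9.43, 9.45 and 9.20 in wild type. Its change of -2.05 ± 0.54 (adjusted p = 0.0172) missed the threshold without CBF3OX replicate 2 (-1.95, adjusted p = 0.0535), although the groups lay wide apart.

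AT1G31690, a copper amine oxidase gene, read 3.58, 3.87, 3.51 and 4.05 in CBF3OX plants, against 6.62, 6.44, 5.50 and 6.15 in wild type, a change of -2.42 ± 0.42 (adjusted p = 0.000514). The class III peroxidase gene AT5G15180 fell by 2.03 ± 0.56 (adjusted p = 0.0234). Its call ended without CBF3OX replicate 1 or 3 or wild-type replicate 1, 2 or 3, with adjusted p from 0.0523 to 0.0739. A further peroxidase gene picked after its values were seen, AT2G37130, fell by 1.26 ± 0.28 (adjusted p = 0.00584), to 6.30, 5.98, 7.09 and 6.73 in CBF3OX plants against 7.57, 7.86, 8.0 and 7.71 in wild type. With line A30 alone AT2G37130 was not called (adjusted p = 0.181). MSRB9 (AT4G21850), a methionine sulfoxide reductase that repairs oxidised methionine, fell by 1.57 ± 0.49 (adjusted p = 0.0437). That call ended in 7 of the 8 fits without 1 sample, all but the one without wild-type replicate 4, with adjusted p from 0.0621 to 0.108. The dehydrogenase-like genes AT1G64590 and AT1G66800 fell by 2.22 ± 0.53 and 2.05 ± 0.42. AT1G64590 lost its call with either line alone and with line means as samples (adjusted p up to 0.105).

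Among genes of proteolysis, GAMMA-VPE (AT4G32940), the main vacuolar processing enzyme of leaves, varied little between samples. It read 10.30, 10.12, 10.32 and 10.28 in CBF3OX plants, against 12.03, 12.01, 11.87 and 11.95 in wild type. The change was -1.71 ± 0.27 (adjusted p = 0.000226), a 3.27-fold fall of an abundant transcript. BETA-VPE, its relative known from seeds, went the other way, with 6.73, 5.80, 5.68 and 5.98 in CBF3OX plants against 3.77, 3.77, 4.14 and 3.47 in wild type.

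AT3G15450, a gene with the YGL and LRDR motifs that is induced when sugar is scarce, read 6.55, 6.97, 8.93 and 8.27 in CBF3OX plants, against 9.71, 9.86, 9.60 and 10.10 in wild type. The first 2 CBF3OX values, from line A28, lie well below those from line A30. It fell by 2.14 ± 0.61 (adjusted p = 0.0278), and the call ended without CBF3OX replicate 1 or 2 or wild-type replicate 1, 2 or 4, with adjusted p from 0.0549 to 0.11. The major facilitator genes AT2G16660 and AT5G14120 fell by 1.69 ± 0.36 and 1.53 ± 0.33. AT2G16660 read 7.60, 7.92, 8.64 and 8.98 in CBF3OX plants, against 10.02, 9.92, 9.65 and 10.31 in wild type. The glycine-rich protein gene AT2G05540 fell by 1.83 ± 0.53 (adjusted p = 0.0305). Only the fit without CBF3OX replicate 3 kept its call, and the others without 1 sample gave adjusted p from 0.0506 to 0.113.

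AT1G22690, of the family of gibberellin-regulated GASA peptides, read 7.44, 8.49, 7.74 and 7.52 in CBF3OX plants, against 9.68, 9.93, 9.72 and 9.62 in wild type, a change of -1.94 ± 0.35 (adjusted p = 0.000904). AT2G41090, a calmodulin-like calcium-binding protein gene, read 9.98, 8.83, 8.13 and 9.82 in CBF3OX plants, against 10.80, 11.00, 11.26 and 10.79 in wild type. Its CBF3OX samples differed more within each line than the line means did, and with line A28 alone it was not called (adjusted p = 0.0663). AT1G21000, a PLATZ zinc-binding factor gene, fell by 1.49 ± 0.30 (adjusted p = 0.00241). The ERF-family gene AT5G61590, known as DEWAX and a repressor of wax synthesis, was picked after its values were seen. It read 6.92, 7.27, 7.10 and 7.22 in CBF3OX plants, against 8.50, 8.62, 8.16 and 8.41 in wild type, a change of -1.30 ± 0.33 (adjusted p = 0.0132) whose call ended with either line alone or with line means as samples (adjusted p from 0.0759 to 0.117). A second ERF-family gene, AT5G07580, also picked this way, fell by 1.18 ± 0.22 (adjusted p = 0.00136). AT3G16670, of the pollen Ole e 1 and extensin family, had the largest fall of the called named genes and uneven CBF3OX samples, with 4.31, 5.58, 6.13 and 6.53 in CBF3OX plants against 8.78, 8.01, 8.65 and 8.72 in wild type. Its change of -2.90 ± 0.91 was called at an adjusted p of 0.0447. In each of the 8 fits without 1 sample it missed the threshold, with adjusted p from 0.0516 to 0.145.

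The other members of the 30 are little described. AT1G67860 and AT1G67865 fell by 2.61 ± 0.58 and 1.91 ± 0.34, AT2G30930 by 1.94 ± 0.41, AT1G19020 by 1.89 ± 0.39 and AT1G64360 by 1.82 ± 0.36. AT1G64360 was very even among CBF3OX plants, at 3.29, 3.32, 3.44 and 3.39 against 4.98, 4.95, 5.23 and 5.58 in wild type, at a dim level. AT5G22580, of the stress-responsive A/B barrel family, and the glycine-rich AT5G28630 fell by 1.51 ± 0.31 and 1.5 ± 0.26. AT3G15630 (-1.67), AT4G33666 (-1.64) and AT5G59400 (-1.61) completed the set. The call of AT4G33666 ended without wild-type replicate 1 (adjusted p = 0.0524). That of AT5G59400 ended without CBF3OX replicate 2 or 3 or wild-type replicate 2, with adjusted p from 0.0529 to 0.0594. That of AT3G15630 ended without CBF3OX replicate 1 or 2 or wild-type replicate 1, 2 or 4, with adjusted p from 0.0651 to 0.114. In all, 21 of the 30 were called in each of the fits without 1 sample, and 11 under all alternatives. A further 8 lost the call only with line A30 alone, which leaves 2 CBF3OX samples. These losses belong to the fit with 1 mean per group. With a mean for each line, all 30 were called over both lines. Of the 30, line A28 alone had 30 called, where 4.53% of all features were, and line A30 alone had 29, where 3.77% were, all but AT3G15630 (adjusted p = 0.0934). The 30 were picked for low values in these same samples, so their calls in each line are no separate test. AT5G61590 was then called in either line as well (adjusted p = 0.0106 in A28 and 0.0183 in A30). The adjusted p of AT3G16670 was then 3.67e-08 and that of MSRB9 0.000436.

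**Figure D3:**
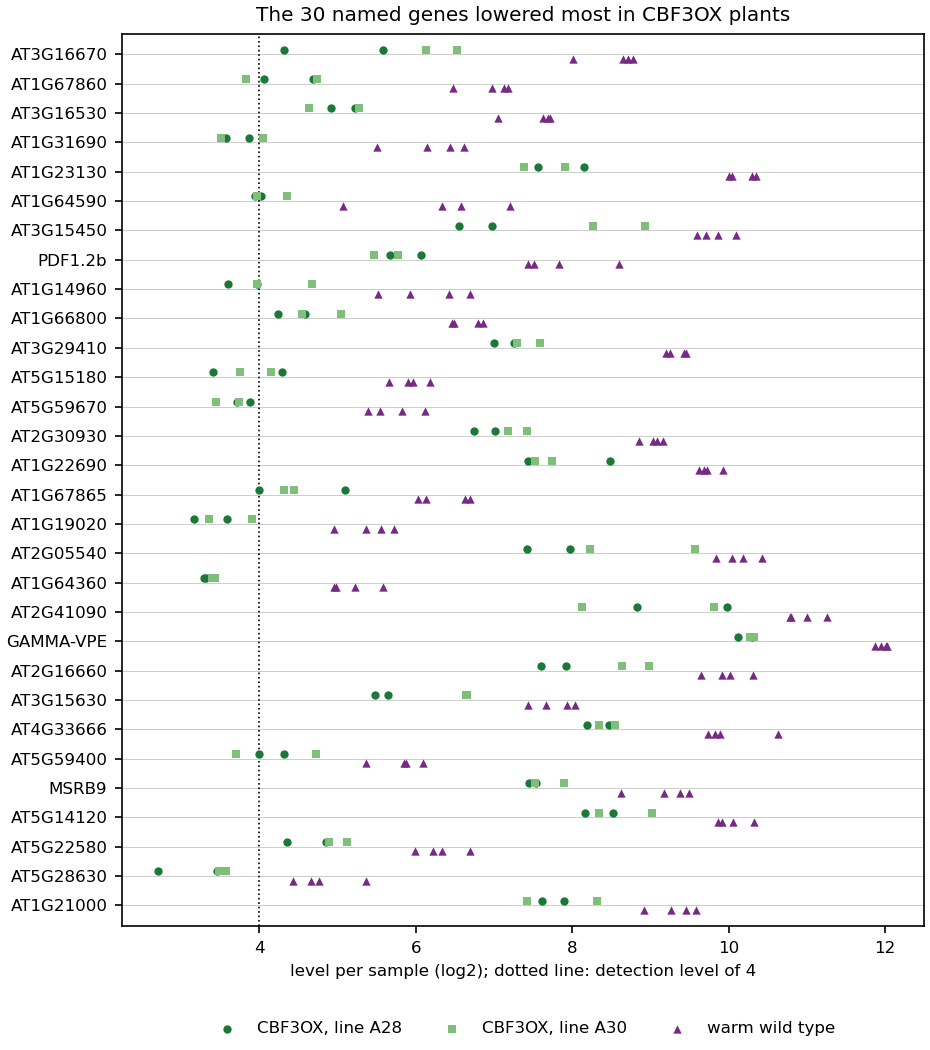
Log2 level per sample (x axis) of the 30 named genes lowered most in CBF3OX plants, with circles for line A28, squares for line A30 and triangles for warm wild type. The dotted line marks the detection level of 4. By the rule that chose the genes, all 4 CBF3OX samples lie below all 4 wild-type samples in each. The circles of AT3G15450, AT2G16660 and AT3G15630 lie to the left of the squares.

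Of 335 entries in 25 lists of pathway genes, 60 were tested as named genes, and 9 rose (15%) and 5 fell (8.33%), beside 1.94% and 1.66% of all features. These 14 are a small part of the 525 called features, and the lists were drawn up with earlier results known. The 12 measured sugar transporter genes went both ways, with a median change of -0.06, beside 0.00125 over all features. SWEET1 (AT1G21460), a glucose transporter, rose to 7.67, 7.68, 7.33 and 7.47 in CBF3OX plants, against 5.97, 5.68, 6.09 and 5.90 in wild type, a change of 1.63 ± 0.29. SWEET13, a sucrose transporter, rose by 1.94 ± 0.56 (adjusted p = 0.03). In the fit with 1 mean per group its call ended without CBF3OX replicate 1, 2 or 4 or wild-type replicate 2, 3 or 4, with adjusted p from 0.0587 to 0.0799. With a mean for each line SWEET13 was called in line A28 (adjusted p = 9.68e-06) and in line A30 (adjusted p = 8.63e-05). SWEET11 (AT3G48740), which exports sucrose for phloem loading, fell to 10.12, 10.23, 10.32 and 10.10 in CBF3OX plants, against 11.33, 11.11, 11.16 and 11.55 in wild type, a change of -1.10 ± 0.17 (adjusted p = 0.000232). SWEET16 (AT3G16690), a transporter of the vacuole membrane, fell by 1.46 ± 0.27 and was dim in CBF3OX plants. Changes under 2-fold but with an adjusted p below 0.05 were held by the vacuolar transporters SWEET17 (-0.60) and TMT1 (-0.80) and by SFP1 (-0.65), and TMT2 changed by 0.65 (adjusted p = 0.0509).

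Of 10 measured genes of cell-wall loosening, 3 rose and 1 fell, with a median of 0.18, beside 1.94% of all features higher and 1.66% lower. XTH32 (AT2G36870), a xyloglucan endotransglucosylase gene, read 9.09, 9.10, 8.72 and 8.74 in CBF3OX plants, against 7.34, 7.35, 7.46 and 7.40 in wild type, a change of 1.52 ± 0.25 (adjusted p = 0.000419). XTH20 and the expansin-like EXLA2 rose by 1.58 ± 0.43 and 1.71 ± 0.47. The call of XTH20 ended without CBF3OX replicate 1 or 2 or wild-type replicate 2 or 4 (adjusted p from 0.053 to 0.0628). That of EXLA2 ended without CBF3OX replicate 2 or 3 or wild-type replicate 1 or 2 (adjusted p from 0.0511 to 0.0599). These losses belong to the fit with 1 mean per group. With a mean for each line, XTH20 was called in line A28 (adjusted p = 7.63e-07) and line A30 (1.42e-05). EXLA2 was then called in both as well (2e-05 and 3.24e-05). XTH16 fell by 1.0 ± 0.27, just at the fold threshold, and missed it without CBF3OX replicate 1 or 2 or wild-type replicate 1, 3 or 4 (changes from -0.98 to -0.86). With a mean for each line XTH16 was called in line A28 (-1.34) but not in line A30 (-0.66). EXPA8, an expansin gene, read 7.54, 7.24, 7.57 and 7.75 in CBF3OX plants, against 8.56, 9.29, 8.96 and 8.85 in wild type. Its change of -1.39 ± 0.47 was not called in the fit with 1 mean per group (adjusted p = 0.0661). With a mean for each line EXPA8 was called in line A28 (-1.525, adjusted p = 0.00118) and in line A30 (-1.255, adjusted p = 0.00802).

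In the other lists, PDF1.2b was the 1 called gene of 3 measured in the defence list, and EXPA18 the 1 of 3 root markers. EXPA18 changed by -1.0 ± 0.19 and fell short of 2-fold without CBF3OX replicate 2, 3 or 4 or wild-type replicate 2 or 3 (changes from -0.99 to -0.93). None of the 7 photosynthesis genes was called, and their median change was -0.10. None was called of 3 clock genes, 4 genes of anthocyanin and flavonoid synthesis, 3 of starch and sucrose metabolism, 2 of glucosinolate synthesis, 2 gibberellin genes and 2 reference genes. The clock gene GI, for example, changed by 0.42 ± 0.18 and COR27 by -0.50 ± 0.30. Fewer than 5 genes were measured in most of these lists, so they describe those genes and not the pathways. Genes next to each other on the chromosome were called together in 3 of 2451 tested neighbour pairs, each pair in the same direction, where 230 of 7898 named genes (2.91%) were called. The 3 pairs were COR15B with COR15A, AT5G59670 with AT5G59680, and AT1G16850 with AT1G16840. AT1G16840 rose by 1.26 ± 0.24. It was not called with line A30 alone in the fit with 1 mean per group (adjusted p = 0.069), against 7.22e-05 with a mean for each line. Genes without a matched locus, such as AT1G67865, were left out, so a pair of it with AT1G67860 was not counted. No excess of neighbours was tested.

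The lines gave closely similar values. Between A30 and A28, 1 feature of 14578 was called (0.00686%), and 591 had an unadjusted p below 0.05. Chance alone gives a share of 0.05 of features such a p, so the 591 are no tally of differences. The called feature was AT5G55070, which encodes a subunit of the mitochondrial 2-oxoglutarate dehydrogenase complex. It read 7.84 and 7.94 in line A30, against 5.11 and 4.86 in line A28, a difference of 2.90 (adjusted p = 9.25e-10). Wild type read 7.55, 7.71, 7.83 and 7.45, so line A30 was at the wild-type level and line A28 below it. AT5G55070 was not called over both lines against wild type (-1.2 ± 0.44, adjusted p = 0.0874), though it was with a mean for each line (adjusted p = 2.39e-07).

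Among the called features the lines differed mostly in small steps, more often in one direction than in the other. In 197 of the 283 raised features (69.6%) the mean of line A30 was below that of line A28, beside 52.2% of all features. In 175 of the 242 lowered ones (72.3%) line A30 was above line A28, beside 46.7% of all. The opposite held in 84 raised and 66 lowered features. The median difference, A30 minus A28, was -0.14 for the raised and 0.18 for the lowered features, and -0.01 over all. Per sample, the median of the raised features relative to the wild-type mean was 1.47 and 1.46 in line A30, against 1.64 and 1.60 in line A28. The median of the lowered features was -1.24 and -1.22 in line A30, against -1.44 and -1.48 in line A28. The same medians ran from -0.03 to 0.05 and from -0.06 to 0.09 over the 4 wild-type samples. The 2 lines lay within 2-fold of each other in 277 of the raised features, 227 of the lowered ones (93.8%) and 99.6% of all. The probe set 254066_at followed this order, with 11.97 and 11.86 in line A30 against 12.27 and 12.25 in line A28, a difference of -0.34 (adjusted p = 1).

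Gaps of 2-fold or more between the lines also stood among the lowest genes. In 22 of the 30 lowest named genes line A30 was above line A28, and in 5 the gap was at least 2-fold. These were AT3G15450 (1.84, adjusted p = 0.13), AT3G16670 (1.38), AT2G05540 (1.2), AT3G15630 (1.08) and AT2G16660 (1.05), and none of these differences was called. Against wild type AT3G15450 changed by -1.22 in line A30 and by -3.06 in line A28. The adjusted p was 0.431 for A30 alone and 0.0131 for A28 alone in the fit with 1 mean per group, and 0.0148 and 3.61e-07 with a mean for each line. Of the 15 highest genes, 13 were lower in line A30, by 0.82 at most, for AT3G17130. COR15A was 0.38 and COR15B 0.03 lower in line A30, differences that were not called.

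**Figure D4:**
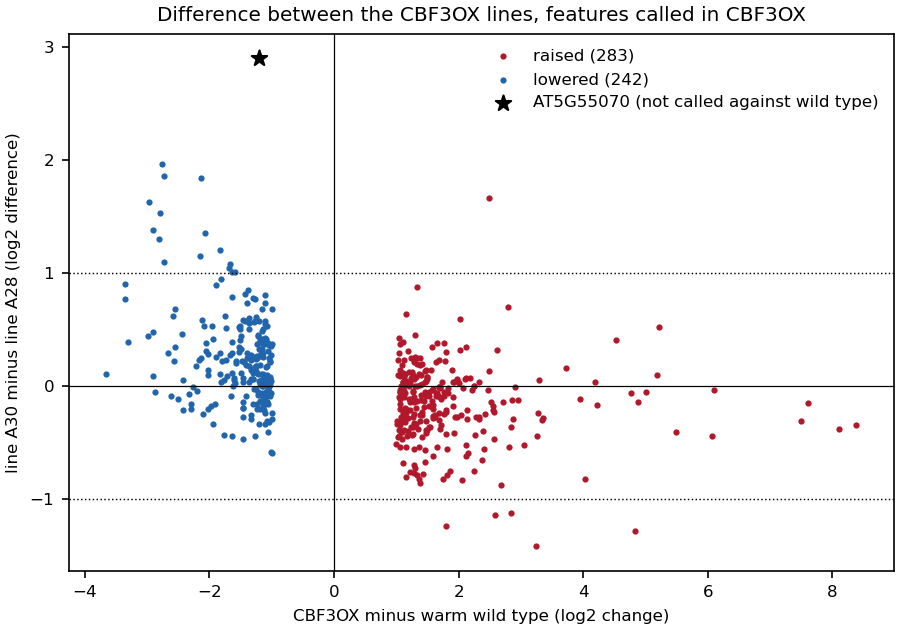
Each red or blue point is a feature called in CBF3OX plants, with the log2 change against warm wild type on the x axis and the log2 difference between the lines, A30 minus A28, on the y axis. Dotted lines mark 2-fold. Most lowered features (blue) lie above 0 and most raised features (red) below it, and the star marks AT5G55070 at 2.90, the 1 feature called between the lines, which was not called against wild type.

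CBF3OX plants were next set directly against the other overexpressors, with no wild-type sample in the difference. Against CBF1OX, 3 of 14578 features were called (0.0206%), and 757 had an unadjusted p below 0.05. Against CBF2OX, 3 were called (0.0206%), and 847 had an unadjusted p below 0.05. Chance alone gives a share of 0.05 of features such a p, so the unadjusted counts are no tally of differences. The low counts of called features depend on how the lines are treated. With a mean for each line, 19 were called against CBF1OX (0.130%) and 14 against CBF2OX (0.0960%). Against single lines CBF3OX had 317 called features with G5 (2.17%), 159 with G39 (1.09%), 9 with E2 (0.0617%) and 271 with E24 (1.86%). Between the lines of 1 construct, 858 were called for G39 minus G5 (5.89%) and 335 for E24 minus E2 (2.30%), beside 1 for A30 minus A28. The mean of CBF1OX or CBF2OX thus stands for neither of its lines, and the direct differences below are differences of such means. In both contrasts 254066_at was one of them, higher in CBF3OX by 8.35 and 8.39. The others were 254074_at, lower in CBF3OX than in CBF1OX by 6.34 on the log2 scale, and 254075_at, lower in CBF3OX than in CBF2OX by 8.40 on the log2 scale. These probe sets are unnamed. Among warm plants, 254074_at averaged 8.62 in CBF1OX and at most 2.30 elsewhere, while 254075_at averaged 11.8 in CBF2OX and 13.3 in CBF2Δc plants and at most 3.49 elsewhere.

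In the fit with 1 mean per group, 2 more features were called. 263981_at averaged 4.19 ± 0.62 in CBF3OX plants, against 2.47 ± 0.16 in CBF1OX plants (SD, n = 4 each), a difference of 1.72 (adjusted p = 9.33e-05) that lost its call when only the groups compared were fitted (adjusted p = 0.0642). It was not called against CBF2OX (-0.24, 95% interval from -0.69 to 0.20). The sugar transporter gene SWEET10 averaged 4.33 ± 0.40 in CBF3OX plants, against 5.96 ± 0.58 in CBF2OX plants (SD, n = 4 each), a difference of -1.62 (adjusted p = 0.0408). SWEET10 was not called in CBF3OX plants against wild type (0.41 ± 0.29). Its call against CBF2OX ended in 8 of 15 alternatives, with adjusted p from 0.0648 to 0.428. These included the fits without CBF3OX replicate 1, 3 or 4 or without CBF2OX replicate 2, 3 or 4.

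Other direct differences came with wide intervals, which hold the gaps between lines. AT1G22690 was 1.26 lower in CBF3OX than in CBF2OX plants (95% interval from -1.98 to -0.54, adjusted p = 0.72). AT3G16530 was 0.96 lower in CBF3OX than in CBF1OX plants (95% interval from -1.5 to -0.43, adjusted p = 0.854). ICL was 1.23 higher in CBF3OX than in CBF1OX plants (95% interval from 0.21 to 2.24, adjusted p = 0.943). In the fit with 1 mean per group none passed after adjustment. Values of these differences with a mean for each line are not given here. For PDF1.2b the interval was narrower, from -0.54 to 0.58 against CBF1OX and from -0.58 to 0.54 against CBF2OX, and for COR15A from -0.51 to 0.50 and from -0.65 to 0.36.

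The changes of the other groups against warm wild type share its 4 samples with the CBF3OX comparison, so they are set side by side only. By the same rule CBF1OX plants had 369 called features (2.53%), CBF2OX plants 364 (2.50%), CBF2Δc plants 3 (0.0206%) and cold wild type 2684 (18.4%), with 1274 higher (8.74%) and 1410 lower (9.67%). The values of CBF1OX and CBF2OX are again means over unlike lines. GAMMA-VPE changed by -1.71 in CBF3OX, -1.36 in CBF1OX, -1.21 in CBF2OX, -0.06 in CBF2Δc plants and -0.57 in cold wild type. PDF1.2b changed by -2.1, -2.12, -2.08, 0.21 and -0.48 in the same order, so its changes lay close together in the 3 full-length overexpressors. AT3G15630 changed by -1.67, -1.29, -0.98, -0.16 and -3.69, with the lowest value in the cold.

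Some genes had opposite signs in warm CBF3OX plants and in cold wild type. AT1G19020 changed by -1.89 ± 0.39 in CBF3OX plants and by 1.66 in cold wild type. AT5G59400 changed by -1.61 ± 0.43 in CBF3OX plants and by 1.82 in cold wild type. AT5G35735, picked after its values were seen, changed by -1.32 ± 0.15 and 1.16. In the other direction, AT5G59080 changed by 1.82 ± 0.29 in CBF3OX plants and by -2.06 in cold wild type, and AT2G38870 by 1.60 ± 0.29 and -1.89, both picked after their values were seen. Each of these 10 changes passed the threshold in its own comparison. Cold plants also had dimmer light and were harvested 24 h later, which cannot be told apart from the temperature.

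**Figure D5:**
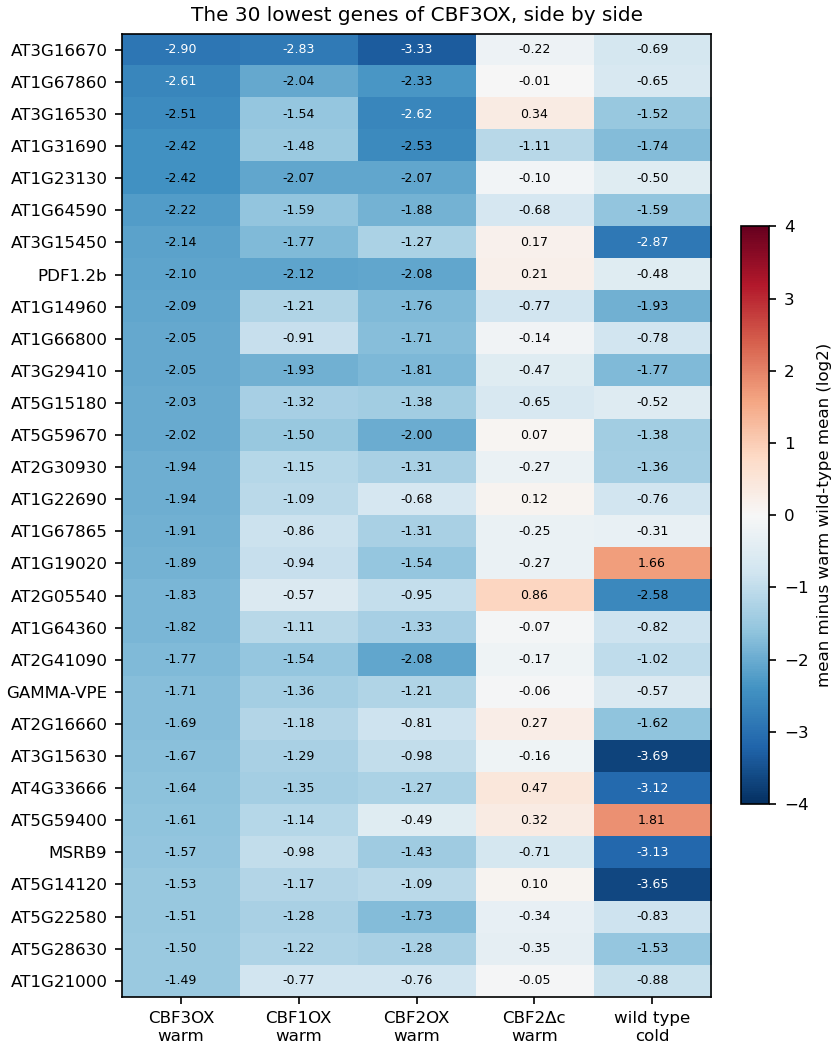
Log2 changes against the warm wild-type mean for the 30 named genes lowered most in CBF3OX plants (rows), in CBF3OX, CBF1OX, CBF2OX and CBF2Δc plants grown warm and in cold wild type (columns). Blue is lower and red higher than warm wild type. All columns share the same 4 wild-type samples. The genes were chosen for their low value in the first column, and AT1G19020 (1.66) and AT5G59400 (1.82) are red in the cold.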

How the data were processed

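RNA from aerial parts was hybridised to Affymetrix Arabidopsis arrays. The authors deposited log2 levels per probe set. Per the submitters' processing notes these come from GCRMA, and limma is named as well, while software versions and the fitted models are not stated in the labels. That the scale is log2 was inferred from the values, which run from 2.16 to 14.53. GCRMA corrects background by probe sequence, so dim probe sets sit near a floor, and 11.6% of values equal the lowest. The number of arrays limits the precision.

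Of 22810 probe sets, 64 controls were left out. The platform annotation gave 13513 probe sets 1 gene, of which 13436 were matched by gene ID to RefSeq TAIR10.1 symbols, 503 several genes and 8730 none. The last 2 kinds were kept as unnamed. Families of genes named by locus are general background, not from the files. A gene with more than 1 probe set was read from its brightest. Features above 4 in at least 4 arrays were tested, 7898 named genes and 6680 unnamed probe sets.

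All 28 samples were fitted with limma 3.58.1 (R 4.3.3, statmod 1.5.0), with 1 mean per group, or per line for the contrast A30 minus A28, and Benjamini-Hochberg adjustment over all features. Tables and plots were made in Python 3.11.15, using pandas 2.3.3, numpy 2.4.6 and matplotlib 3.10.9. The fit was tested on simulated data. Named genes were the 15 highest and 30 lowest called genes whose samples did not overlap, called members of gene lists, the 2 highest and 2 lowest unnamed probe sets, and features called between lines or overexpressors. Other list members are given as values, and further genes are said to be picked after their values were seen. The members and lists were chosen with earlier results of these data known. A fit with a mean for each line, the lines of a construct weighted equally, was added after the data were seen. Alternatives are given at the end.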

Additional observations from a re-analysis of the deposited data

Results flagged for a closer look

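Among the features named by rule, including unnamed probe sets and features called only between overexpressors, 11 of 128 groups of 4 had 1 sample far from the other 3 by Dixon's criterion, where chance gives about 1 in 20. In CBF3OX plants this was the highest sample of AT1G64590 (4.36) and the lowest of AT5G28630 (2.71) and of 254074_at (2.22), all at dim levels or near them. In warm wild type it was the highest sample of COR15A (5.01), AT1G68500 (5.31), AT2G16990 (3.96) and AT4G33666 (10.63), and the lowest of AT2G24560 (2.37), AT3G16670 (8.01), AT3G16530 (7.05) and XTH16 (5.48). The samples concerned were not the same ones from gene to gene.

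Differences called between the lines or between overexpressors were AT5G55070, 2.90 higher in line A30 than in line A28, and those of CBF3OX with the other overexpressors. Against CBF1OX these were 254066_at (8.35), 254074_at (-6.34) and 263981_at (1.72), and against CBF2OX 254066_at (8.39), 254075_at (-8.40) and SWEET10 (-1.62).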

How the results depend on the processing

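The 525 features called in CBF3OX plants became 317 (203 higher, 114 lower) with line means as samples, 240 (149 and 91) with line A30 alone, and 1278 (571 and 707) with no fold threshold. Without 1 sample the count ran from 430 to 508, and under the other alternatives it stayed within 1.5 times, from 407 with line A28 alone to 590 with a mean for each line, an alternative chosen after seeing the data. The replicate block gave 522. Replicate numbers did not pair the samples, since same-numbered samples correlated from -0.04 to 0.048 in their deviations. CBF3OX replicates 1, 2, 3 and 4 correlated most with wild-type replicates 2, 1, 4 and 3. Whether replicates 1 and 2 were handled apart from 3 and 4 was not tested. In CBF3OX plants such a split cannot be told apart from the lines. Between the lines 1 feature was called, 2 with no filter and 1 to 6 without 1 sample (6 without CBF3OX replicate 2, 4 without replicate 4). Against CBF1OX 2 to 3 and against CBF2OX 2 to 4 were called without 1 sample or under the other alternatives that keep 1 mean per group, and 19 and 14 with a mean for each line. The replicate block gave 3 in each. The 14 called list members became 9 to 13 without 1 sample, 9 of them without CBF3OX replicate 2, and 14 with the replicate block. With a mean for each line they became 15 (9 higher, 6 lower). Of 99 named called features, 53 were called under every alternative and 70 in each fit without 1 sample, and none changed sign. Shares of promoters with a motif were not run. Dim levels limit the size of changes that start or end under 4.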
